A study of Mus musculus with 18 samples.

Results

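The autophagy and lysosome genes of differentiated brown adipocytes were followed through acute activation of lipolysis with and without inhibition of the lipases. The genes were chosen by symbol: the numbered Atg genes, the Atp6v subunit genes of the vacuolar proton pump (V-ATPase), the cathepsins named Cts with 1 further letter, the numbered Lamp genes, and 14 named genes from Sqstm1 to Tfeb and Tfe3. This rule found 76 of the 20295 genes counted, and 60 of the 76 passed the filter on low counts, as did 12156 genes in all. The cells were BAT-LgT, a single wild-type line of mouse brown preadipocytes immortalised with SV40 large T antigen, so that all samples share 1 origin and the transforming antigen. They were differentiated with dexamethasone, 3-isobutyl-1-methylxanthine, T3 and insulin, and were treated on day 7. The groups without inhibitors, named Vehicle, ISO and SR-3420, received DMSO, 100 nM isoproterenol (ISO) or 10 µM SR-3420 for 3 h. ISO acts on all β-adrenergic receptors, whereas SR-3420 binds ABHD5, the protein that activates the lipase ATGL, and so bypasses the receptor. The dose of SR-3420 is the one in the labels; the text of the study gives another, and which was used here was not settled. The groups Lipase Inh. + SR-3420, Lipase Inh. + ISO and Lipase Inh. + Vehicle received inhibitors of ATGL and HSL, named in the methods of the study as Atglistatin and CAY10499, for 1 h before the same 3 treatments. Each of the 6 groups held 3 samples, which the study describes as independent experiments.

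Autophagy begins when the ULK kinase complex and the Beclin 1 lipid kinase complex start a membrane sheet, the phagophore, which grows around its cargo. Linked conjugation systems then attach ATG8 proteins (the LC3 and GABARAP proteins) to the membrane, and receptors such as p62, the product of Sqstm1, tie cargo to them. The closed vesicle fuses with the lysosome, where the V-ATPase keeps the lumen acid and cathepsins and other hydrolases degrade the content. TFEB and TFE3 are transcription factors that bind E-box-like sites in many lysosomal genes, and in fat cells autophagy is known for taking part in the turnover of lipid droplets and mitochondria.

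RNA was measured by sequencing, and levels are given as CPM, counts scaled to a common library size after correction by the trimmed mean of M values (TMM). The libraries held 10310447 to 21205032 counts, except Lipase Inh. + SR-3420 replicate 2 with 4263755, in which 18.3% of counts fell on the single gene Lars2 against at most 0.121% elsewhere. All 8 brown adipocyte markers were detected, with summed levels of 9574 to 14526 CPM, lowest in Lipase Inh. + Vehicle and highest in ISO. Of 7 macrophage markers in the table only Cd14 passed the filter, Ptprc had 0 counts in every library, and their sum was 2.79 to 11.2 CPM, highest in Lipase Inh. + ISO. The 5 preadipocyte or fibroblast markers were all tested, and their sum was 32.7 to 40.8 CPM in Vehicle, 44.9 to 56 in ISO and 45.6 to 46.7 in SR-3420, so that both stimulated groups lay above Vehicle. In the inhibitor groups the sum was 31.5 to 37.6 CPM for the vehicle, 38.7 to 51.9 for ISO and 34.0 to 35.2 for SR-3420. The part of these cells in the results was not tested. In these bulk samples fewer cells of a type and less RNA per cell cannot be told apart.

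Of the 16 genes below the filter, Ctse, Ctsg, Ctsj, Ctsm, Ctsq, Ctsr and Ctss had 0 counts in every library, where 3 counts correspond to 0.704 CPM before TMM correction in the shallowest library and 0.141 in the deepest. The other 9, the pump subunits Atp6v0a4, Atp6v0d2, Atp6v1b1, Atp6v1e2 and Atp6v1g3, the cathepsins Ctsc and Ctsw, and Lamp3 and Lamp5, reached at most 12 counts in a library. Per kilobase of counted sequence, the Vehicle level was 347 ± 23.5 CPM per kb (SD, n = 3) for Ctsb, a cysteine protease, and 341 ± 22.6 for Lamp1, the main glycoprotein of the lysosomal membrane. These levels did not differ beyond their spread. Map1lc3b, the LC3B gene, followed at 295 ± 27.3, Sqstm1 at 286 ± 20.9 and Ctsd, the aspartic protease cathepsin D, at 244 ± 38.2 CPM per kb, and the spreads of neighbours in this order overlapped. The regulators lay far lower, with Becn1 at 21.4 ± 2.08, Tfe3 at 20.6 ± 2.11, Ulk1 at 18.8 ± 0.929, Tfeb at 12.6 ± 1.57 and the lysosomal cation channel gene Mcoln1 at 10.5 ± 0.974 CPM per kb. Atp6v0c was left out of this order, because the deposited table counts only 34 bp of its 5542 bp span.

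Promoter windows were available from RefSeq (GRCm38.p6) for 62 of the 76 genes, each 300 bases long from 250 before the transcription start to 50 after it. They were searched on both strands for the E-box CACGTG, for the longer TFEB-type site TCACGTGA that contains it, for the cAMP response element TGACGTCA and for the CHOP-ATF4 type site TGATGNAAT. CACGTG was found in 14 of the 62 genes (22.6%) against 8.09% of 27025 genes, and in 28.6% of the 49 tested genes with a window against 11.8% of all 9206 tested genes with one. TCACGTGA was found in 7 of the 62 genes (11.3%) against 1.12% of all genes, and in 14.3% of the 49 against 2.19% of the 9206. The cAMP response element occurred in 2 genes (3.23%, against 2.03%), and TGATGNAAT, which 1.08% of all genes held, had no match in these windows. Among tested genes with a window, the cAMP response element was in 4.08% of the 49 against 3.68% of the 9206. TGATGNAAT was in 0.543% of the 9206. The 6 windows below are those of a pump subunit, a conjugation enzyme, 2 cathepsins, the main membrane protein and the channel, and show how densely the motif occurs near some starts. Capitals mark CACGTG or, where it is present, TCACGTGA. The sequences are those of the strand of the gene, 5′ to 3′, at chr8:13158911-13159210 (+) for Lamp1, chr8:3500269-3500568 (+) for Mcoln1, chr2:164833523-164833822 (+) for 1 of 2 starts of Ctsa, chr7:142387778-142388077 (-) for Ctsd, chr8:105566015-105566314 (-) for Atp6v0d1 and chr16:45158579-45158878 (+) for Atg3.
Lamp1: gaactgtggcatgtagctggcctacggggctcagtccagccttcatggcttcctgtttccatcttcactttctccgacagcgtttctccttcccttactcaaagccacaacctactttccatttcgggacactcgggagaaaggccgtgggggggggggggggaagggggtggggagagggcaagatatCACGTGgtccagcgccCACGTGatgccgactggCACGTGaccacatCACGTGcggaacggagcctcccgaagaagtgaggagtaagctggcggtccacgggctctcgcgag
Mcoln1: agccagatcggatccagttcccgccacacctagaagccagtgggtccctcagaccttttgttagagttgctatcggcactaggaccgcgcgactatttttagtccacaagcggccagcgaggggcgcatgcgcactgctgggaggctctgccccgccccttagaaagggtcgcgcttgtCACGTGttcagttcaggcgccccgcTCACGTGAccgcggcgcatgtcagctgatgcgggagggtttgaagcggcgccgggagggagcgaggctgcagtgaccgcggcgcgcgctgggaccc
Ctsa: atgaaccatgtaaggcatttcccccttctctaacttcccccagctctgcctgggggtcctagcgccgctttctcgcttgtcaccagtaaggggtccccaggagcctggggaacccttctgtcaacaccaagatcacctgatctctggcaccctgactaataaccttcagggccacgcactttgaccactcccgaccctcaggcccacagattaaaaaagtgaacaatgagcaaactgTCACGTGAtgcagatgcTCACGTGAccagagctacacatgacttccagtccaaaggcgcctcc
Ctsd: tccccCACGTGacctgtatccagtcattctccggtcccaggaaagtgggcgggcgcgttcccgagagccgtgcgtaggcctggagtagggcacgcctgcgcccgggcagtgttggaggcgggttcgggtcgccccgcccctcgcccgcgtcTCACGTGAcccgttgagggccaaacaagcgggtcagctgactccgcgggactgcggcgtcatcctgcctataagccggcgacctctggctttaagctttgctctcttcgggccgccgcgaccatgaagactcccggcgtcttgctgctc
Atp6v0d1: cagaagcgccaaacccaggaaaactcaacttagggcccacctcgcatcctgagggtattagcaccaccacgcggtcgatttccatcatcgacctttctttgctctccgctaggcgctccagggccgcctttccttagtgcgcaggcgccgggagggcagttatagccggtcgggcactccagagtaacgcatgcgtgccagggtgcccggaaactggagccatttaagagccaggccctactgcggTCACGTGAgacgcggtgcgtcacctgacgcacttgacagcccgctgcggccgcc
Atg3: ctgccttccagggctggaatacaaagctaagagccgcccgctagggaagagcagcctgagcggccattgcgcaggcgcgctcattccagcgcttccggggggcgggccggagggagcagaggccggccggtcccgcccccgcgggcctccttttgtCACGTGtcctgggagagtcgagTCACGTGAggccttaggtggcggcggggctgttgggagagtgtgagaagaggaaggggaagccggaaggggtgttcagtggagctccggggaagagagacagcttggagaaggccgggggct
Lamp1 held 4 copies of CACGTG, the first bases of which lie 61, 45, 28 and 15 bases before the start. Mcoln1, Ctsd and Atg3 each held 1 TCACGTGA and 1 further CACGTG, Ctsa held TCACGTGA on both sides of its start, and the single TCACGTGA of Atp6v0d1 begins 4 bases before the start. A match is a description of the letters and not a measured site.

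To examine how lipolytic stimulation changed the genes as a group, each treatment was compared with the vehicle that had received the same inhibitors. A gene was called higher or lower at an adjusted p of at most 0.05 over all 12156 genes. After ISO, 17 of the 60 tested genes were higher and 8 lower, where 26.8% of all tested genes were higher and 25.0% lower, and the median log2 fold change was 0.06 against -0.02 for all genes. After SR-3420, 10 were higher and 23 lower, against 26.0% and 25.4% of all genes, with a median of -0.10 against -0.02. The inhibitors alone left the genes close to Vehicle: Atg101 was called lower and no gene higher by edgeR, with 1 higher at an unadjusted p under 0.05 and 0 higher by DESeq2, against 0.485% of all genes higher and 0.428% lower. With the lipases inhibited, ISO raised 26 genes and lowered 15, against 29.4% and 28.3% of all genes, with a median of 0.16 against -0.01. With the lipases inhibited, SR-3420 raised 2 genes, Atg101 and Sqstm1, and lowered 1, Atg7, against 2.99% and 1.36% of all genes, with a median of -0.02 against 0.00. Without the shallow Lipase Inh. + SR-3420 replicate 2, 1 gene was higher and 1 lower in that comparison. These counts depended on the scaling of the libraries, since scaling by total counts alone moved the median of all genes by -0.31 for ISO, -0.16 for SR-3420 and -0.23 for ISO with inhibitors. The split into higher and lower was then 5 and 28 for ISO, 5 and 28 for SR-3420, 12 and 18 for ISO with inhibitors, and 1 and 1 for SR-3420 with inhibitors. Without ISO replicate 1 or 2 the count lower after ISO was 5 in place of 8, and without Vehicle replicate 1 the count lower after SR-3420 was 15 in place of 23. ISO and SR-3420 were compared with the same Vehicle samples.

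**Figure D1:**
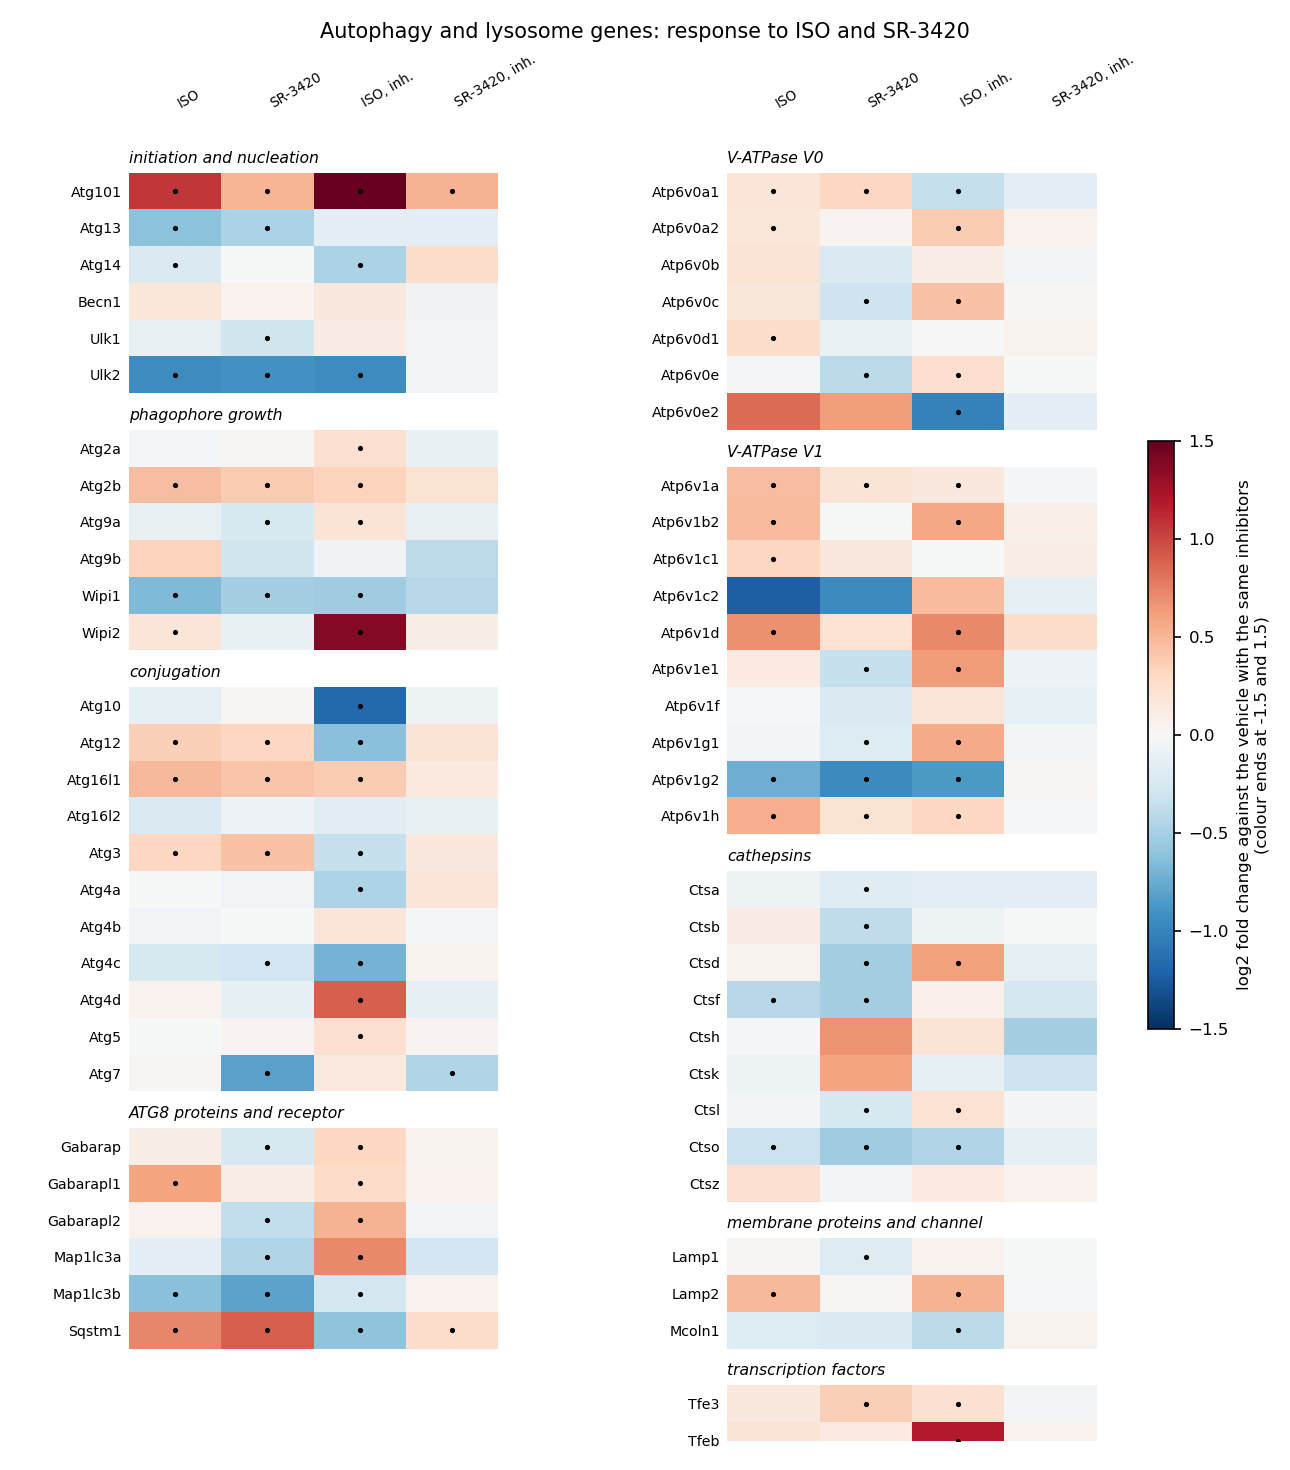
Heat map of the log2 fold change of the 60 tested autophagy and lysosome genes (rows, by role) after ISO and SR-3420 without inhibitors, and with inhibitors (inh.), each against the vehicle with the same inhibitors, 3 samples a group. Red is higher and blue lower, and a dot marks an adjusted p of at most 0.05: the column for SR-3420 with inhibitors has 3 dots over all genes, against 33 for SR-3420 without them.

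Large changes were few. At least 2-fold changes were called for 1 gene after ISO (Atg101), where 9.11% of all genes passed in either direction, and for 5 genes after ISO with inhibitors, where 13.1% passed. The 5 were Atg101, Wipi2 and Tfeb, which were higher, and Atg10 and Atp6v0e2, which were lower. Called changes after SR-3420 ran from -0.95 (Atp6v1g2) to 0.90 (Sqstm1) on the log2 scale.

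To ask whether the responses required active lipases, the difference between the responses with and without inhibitors was tested as an interaction. For ISO it was positive for 12 genes and negative for 9, against 14.9% and 16.6% of all genes, and at least 2-fold for 4, against 6.89%: positive for Wipi2 and negative for Sqstm1, Atg10 and Atp6v0e2. The call for Atp6v0e2 was lost without a filter on low counts, when only the groups compared were fitted, and without ISO replicate 1 or 2, Lipase Inh. + ISO replicate 1 or 3, or replicate 1 of either vehicle group. Scaling by total counts alone gave 14 positive and 6 negative. For SR-3420 it was positive for 8 genes and negative for 3, against 12.5% and 14.8% of all genes, with a median of 0.09 against 0.01, and 10 and 4 genes passed without Lipase Inh. + SR-3420 replicate 2. All 8 of these positive interactions belonged to genes that SR-3420 had lowered, and the 3 negative ones, Sqstm1, Atp6v0a1 and Tfe3, to genes that it had raised. The interaction subtracts the response without inhibitors, and few genes responded to SR-3420 with inhibitors, so these opposite signs were largely set by the calculation. Of the 23 genes lower after SR-3420, 22 were not called when lipases were inhibited, but the interaction itself was called for 8 of the 23, so that a difference between the responses with and without inhibitors was shown for those 8 alone. ISO compared directly with SR-3420 was higher for 19 genes, against 15.8% of all genes, with a median of 0.17 against -0.01. In the main edgeR fit no gene was lower in that comparison, where 13.9% of all genes were, with 3 at an unadjusted p under 0.05 and 0 by DESeq2. The split was 10 higher and 5 lower with total counts alone, and 22 higher and 3 lower with a replicate block in edgeR. Without ISO replicate 2, 2 genes were lower.

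**Figure D2:**
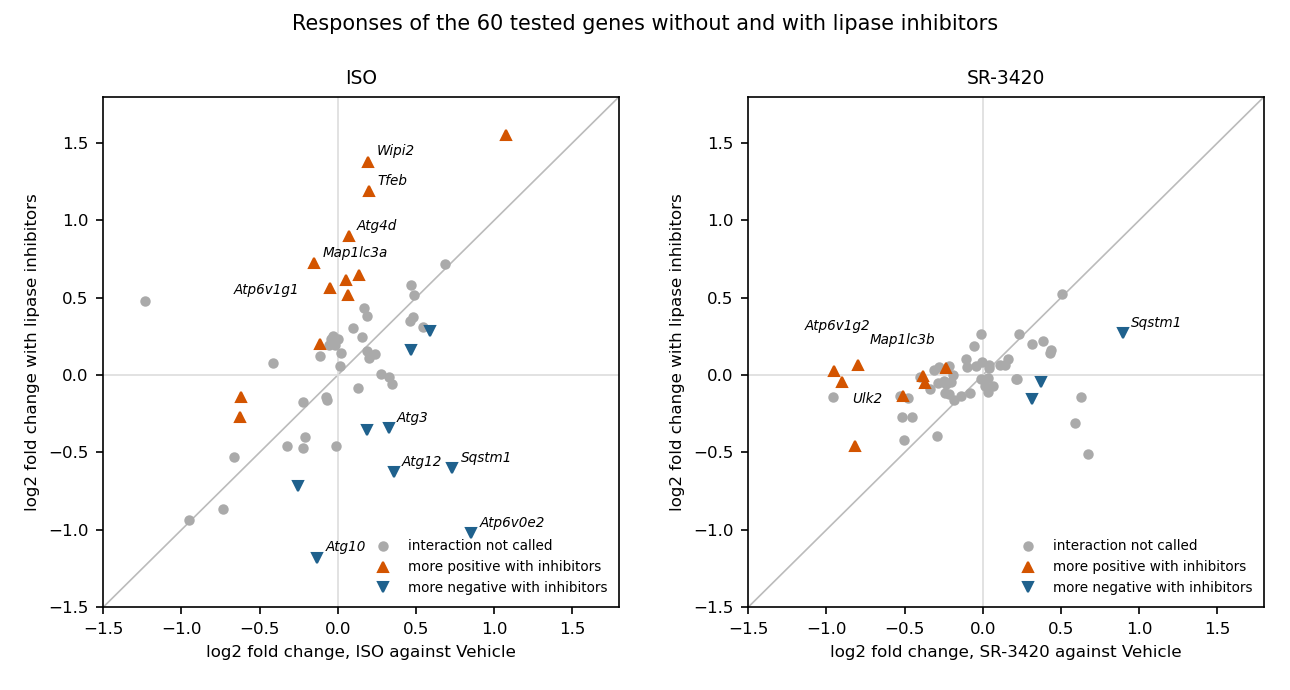
Log2 fold change of the 60 tested genes without inhibitors (x axis) and with lipase inhibitors (y axis), for ISO (left) and SR-3420 (right), with the line of equal response in grey. Triangles mark genes with a called interaction, named where it exceeds 0.6 in size. Sqstm1 and Atg12 lie right of 0 and below 0 for ISO, and Wipi2 and Tfeb lie high on the y axis near 0 on the x axis.

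Among the genes of initiation and nucleation, 1 of 6 rose and 3 fell after ISO, where 26.8% of all tested genes rose and 25.0% fell. Atg101 (chr15:101114732-101121365 in mm9), whose product stabilises ATG13 in the ULK complex, was raised by both stimuli, with and without inhibitors. Its level was 164, 146 and 117 CPM in Vehicle, 292, 323 and 283 with ISO and 192, 202 and 213 in SR-3420. With inhibitors it was 93.5, 112 and 93.6 CPM for the vehicle, 273, 303 and 301 for ISO and 160.3, 142 and 129 for SR-3420. Every stimulated sample lay above every sample of its own vehicle, and every Lipase Inh. + Vehicle sample below every Vehicle sample. On the log2 scale the change was 1.07 ± 0.10 (adjusted p = 1.54e-08) for ISO, 0.51 ± 0.10 (adjusted p = 2.98e-04) for SR-3420, -0.52 ± 0.10 (adjusted p = 0.012) for the inhibitors alone and 1.56 ± 0.10 (adjusted p = 4.00e-11) for ISO with inhibitors (± SE). With SR-3420 and inhibitors it was 0.53 ± 0.11 (adjusted p = 0.0043). The ISO interaction of Atg101 was 0.48 (adjusted p = 0.014), a call that was lost without Vehicle replicate 1. The change under the inhibitors alone was no longer called without Vehicle replicate 1, or without replicate 1 or 3 of Lipase Inh. + Vehicle, or when only these 2 groups were fitted.

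Ulk2 (chr11:61589100-61668594), 1 of the 2 ULK kinases that start autophagy, took the opposite course. Its level was 88.2, 89.5 and 97.4 CPM in Vehicle, 46.9, 45.5 and 50.2 in ISO and 53, 42.2 and 51.5 in SR-3420. With inhibitors it was 97.3, 95.4 and 111 CPM for the vehicle, 52.9, 47.7 and 57.6 for ISO and 93.7, 86.3 and 112 for SR-3420. ISO therefore gave the lower level with and without inhibitors, whereas the SR-3420 samples separated from their vehicle without inhibitors and overlapped it with them. For Ulk2 the log2 fold change was -0.95 ± 0.10 (adjusted p = 8.10e-08) for ISO and -0.94 ± 0.10 (adjusted p = 5.24e-08) for ISO with inhibitors. It was -0.90 ± 0.10 (adjusted p = 1.75e-07) for SR-3420 and -0.04 ± 0.10 with inhibitors, and the interaction for SR-3420 was 0.86 ± 0.14 (adjusted p = 9.81e-05). Atg13, the scaffold of the same complex, fell after both stimuli, with log2 fold changes of -0.62 ± 0.09 for ISO and -0.48 ± 0.09 for SR-3420, and its ISO interaction was 0.48 ± 0.13 (adjusted p = 0.0066). Ulk1, the other kinase, fell after SR-3420, with a log2 fold change of -0.28 ± 0.08 (adjusted p = 0.0050). Atg14, which directs the Beclin 1 complex to the phagophore, fell after ISO (-0.22 ± 0.09 on the log2 scale) and after ISO with inhibitors (-0.47 ± 0.09). The first of these calls was lost by DESeq2, without any 1 of the 3 ISO samples, and without Vehicle replicate 1 or 3. Becn1, the Beclin 1 gene, stayed between 29.6 and 42.6 CPM in all 18 samples and was called in none of the 8 comparisons. Becn1 overlaps Cntd1 on the opposite strand by 435 bp, and no source used here says whether reads were counted by strand.

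Of the 6 genes of phagophore growth, Wipi2 and Wipi1 differed most. WIPI proteins bind the lipid that the Beclin 1 complex makes, and WIPI2 brings the conjugation machinery to it. Wipi2 (chr5:143105538-143145324) was at 265, 229 and 234 CPM in Vehicle, 289, 253 and 289.9 in ISO and 220.1, 231 and 225 in SR-3420. It was at 233, 227 and 234 CPM in Lipase Inh. + Vehicle, 255, 252 and 239 in Lipase Inh. + SR-3420 and 593, 578 and 634 in Lipase Inh. + ISO. The 3 samples with ISO and inhibitors lay above the other 15. ISO changed Wipi2 by 1.38 ± 0.07 (adjusted p = 2.02e-13) on the log2 scale with inhibitors and 0.19 ± 0.07 (adjusted p = 0.020) without them, the latter -0.11 with total counts alone, and the interaction was 1.19 ± 0.09 (adjusted p = 3.46e-09). Wipi1 was called lower, with log2 fold changes of -0.66 ± 0.14 for ISO, -0.50 ± 0.14 for SR-3420 and -0.53 ± 0.14 for ISO with inhibitors. In Lipase Inh. + SR-3420 all Wipi1 samples also lay below their vehicle, but no change was called. Atg2b, a lipid transfer protein gene, rose after ISO by 0.46 ± 0.07, after SR-3420 by 0.38 ± 0.07 and after ISO with inhibitors by 0.35 ± 0.07. With total counts alone the values for ISO were 0.15 without and 0.13 with inhibitors, and neither was called. Atg9a, the gene of the membrane scramblase of the phagophore, fell after SR-3420 (-0.24 ± 0.06 on the log2 scale) and rose after ISO with inhibitors (0.20 ± 0.06), a value that was -0.02 with total counts alone.

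The 11 conjugation genes moved in different directions. ISO with inhibitors raised 3 (Atg16l1, Atg4d and Atg5) and lowered 5 (Atg10, Atg12, Atg3, Atg4a and Atg4c), or raised 1 and lowered 5 with total counts alone, where 29.4% of all tested genes rose and 28.3% fell. ATG5, ATG12 and ATG16L1 together form the ligase of the system, and the ATG4 proteases process its ATG8 substrates. Atg12, the ubiquitin-like protein that is joined to ATG5, was at 141, 149 and 159 CPM in Vehicle, 190.3, 186 and 199 in ISO and 193, 161 and 205 in SR-3420. With inhibitors it was at 149, 147 and 147 CPM for the vehicle, 99.9, 79.5 and 107 for ISO and 163, 169 and 176 for SR-3420. All ISO samples lay above Vehicle without inhibitors and below their vehicle with them. The log2 fold change of ISO was 0.36 ± 0.09 (adjusted p = 0.0022) without and -0.63 ± 0.09 (adjusted p = 5.01e-06) with inhibitors, and the interaction was -0.98 ± 0.13 (adjusted p = 4.19e-06). With total counts alone the change of Atg12 after ISO without inhibitors was 0.051 and was not called. Atg3, the enzyme that passes ATG8 proteins to the lipid, gave 0.33 ± 0.10 without and -0.34 ± 0.11 with inhibitors, and an interaction of -0.67 ± 0.15 (adjusted p = 0.0014). The call of Atg3 for ISO without inhibitors was lost without ISO replicate 2 and with total counts alone, where its value was 0.019. Atg4c, another protease for ATG8 proteins, fell after ISO with inhibitors, with a log2 fold change of -0.71 ± 0.11 (adjusted p = 7.86e-06). Atg10, the enzyme that passes ATG12 to ATG5, was at 9.51, 8.23 and 10.9 CPM in ISO, 12.6, 11.9 and 11.2 in Lipase Inh. + Vehicle and 6.30, 4.12 and 5.27 in Lipase Inh. + ISO. The last 3 samples were lower than the other 15, with a log2 fold change of -1.18 ± 0.16 (adjusted p = 1.31e-06). Atg4d, a protease that trims ATG8 proteins and frees them from the membrane, was higher with ISO and inhibitors by 0.90 ± 0.12 (adjusted p = 2.47e-06) against 0.07 ± 0.13 without inhibitors, with an interaction of 0.83 ± 0.18 (adjusted p = 0.0011). Atg4d overlaps Kri1 on the opposite strand by 1381 bp, and Kri1 itself had a log2 fold change of 0.43 in that comparison.

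Atg7, the activating enzyme shared by both conjugation systems (chr6:114593119-114810632), was lowered by SR-3420 and, with TMM scaling, not by ISO. With total counts alone Atg7 was called lower after ISO as well, with a log2 fold change of -0.28 (edgeR adjusted p = 0.0066). The TMM-scaled level was 131, 115 and 116 CPM in Vehicle, 126, 114 and 128 in ISO and 66.8, 69.4 and 69.9 in SR-3420. In the presence of the inhibitors it was 127, 128 and 128 CPM with vehicle, 135, 134 and 154 with ISO and 95.8, 96.7 and 87.7 with SR-3420. Both SR-3420 groups lay entirely below their vehicle. SR-3420 changed Atg7 by -0.81 ± 0.07 (adjusted p = 7.43e-09) on the log2 scale without and by -0.46 ± 0.07 (adjusted p = 4.81e-04) with inhibitors, the interaction was 0.36 ± 0.10 (adjusted p = 0.013), and ISO was above SR-3420 by 0.84 ± 0.07 (adjusted p = 2.00e-08). Of the 60 tested genes, Atg7 was the 1 called lower after SR-3420 in the presence of the inhibitors in the main fit.

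**Figure D3:**
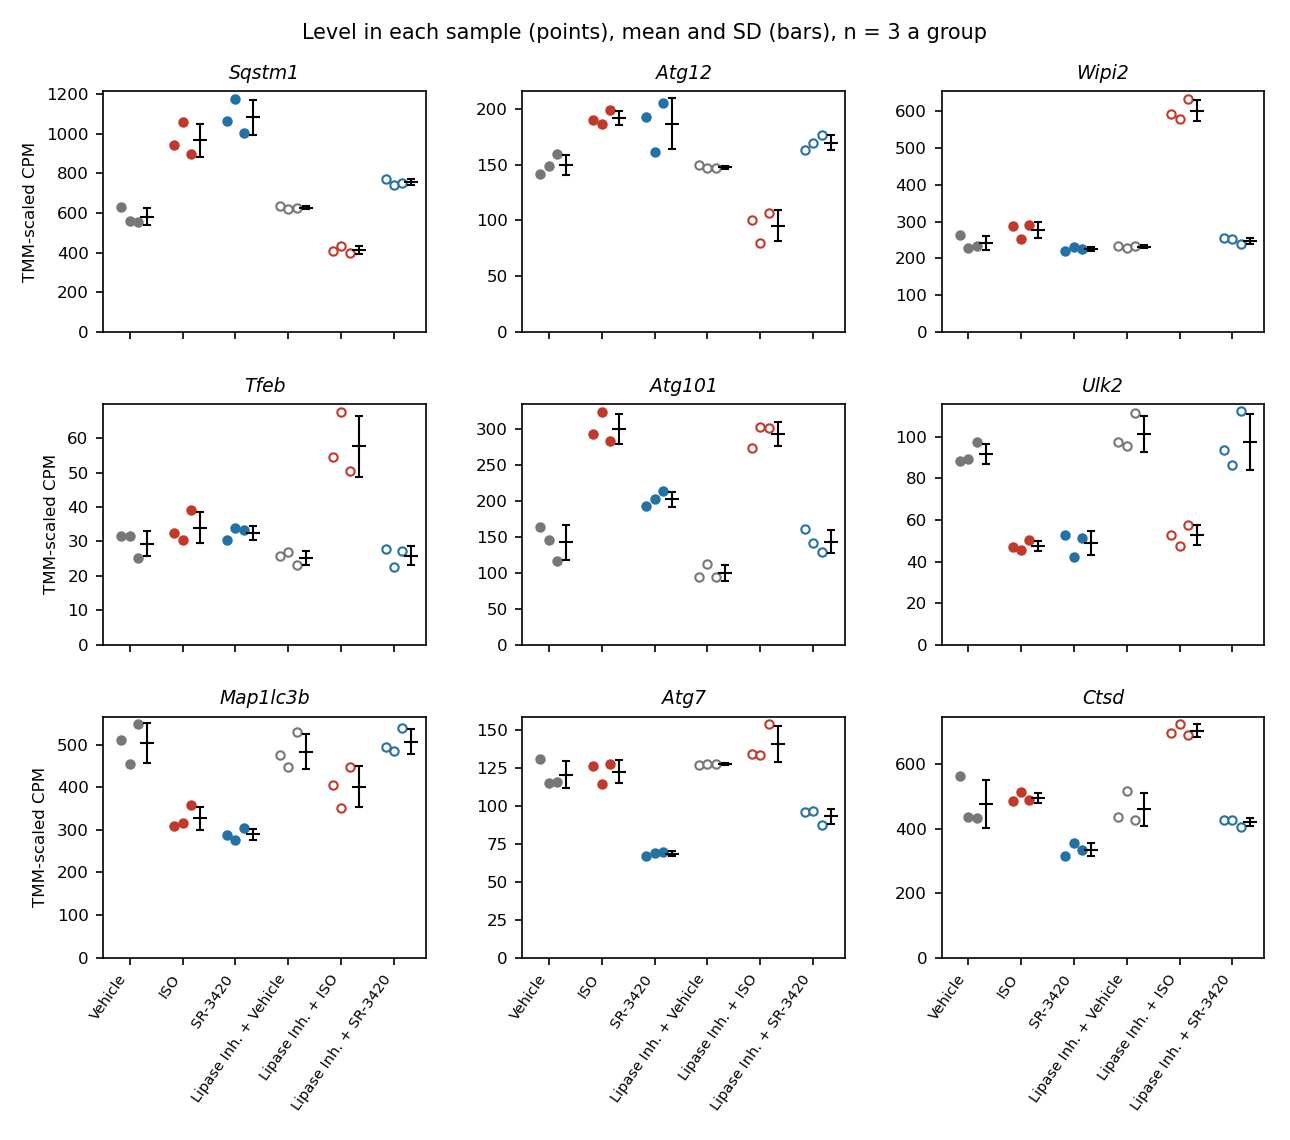
TMM-scaled CPM in each sample (points) of 9 genes in the 6 groups (x axis; filled, no inhibitors; open, lipase inhibitors), with the mean and SD of the 3 samples beside them. Sqstm1 and Atg12 lie above Vehicle in ISO and below it in Lipase Inh. + ISO, Wipi2 and Tfeb are highest in Lipase Inh. + ISO, and Atg7 is lowest in SR-3420.

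Sqstm1 (chr11:50013654-50024322), the p62 receptor gene, had the most negative interaction with ISO of the 60 tested genes except Atp6v0e2, which rested on few reads. Its level was 630.3, 558 and 555 CPM in Vehicle, 944, 1059 and 896 in ISO and 1067, 1176 and 1005 in SR-3420. In the presence of the inhibitors it was 634, 619 and 627 CPM with vehicle, 408, 435 and 396 with ISO and 774, 743 and 751 with SR-3420. All ISO and SR-3420 samples were above Vehicle, all Lipase Inh. + ISO samples below their vehicle, and all Lipase Inh. + SR-3420 samples above it. For Sqstm1 the log2 fold change was 0.73 ± 0.07 (adjusted p = 2.26e-08) for ISO and -0.60 ± 0.07 (adjusted p = 3.26e-07) for ISO with inhibitors, with an interaction of -1.34 ± 0.10 (adjusted p = 1.97e-09). For SR-3420 it was 0.90 ± 0.07 (adjusted p = 1.67e-09) and, with inhibitors, 0.27 ± 0.07 (adjusted p = 0.033), with an interaction of -0.63 ± 0.10 (adjusted p = 9.48e-05). The small rise with SR-3420 and inhibitors was no longer called when any 1 of the 6 samples compared was left out, without Lipase Inh. + ISO replicate 1, or with total counts alone.

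The other 5 genes of this group encode ATG8 proteins. After SR-3420, 4 of them fell, with log2 fold changes of -0.80 ± 0.09 for Map1lc3b, -0.45 ± 0.16 for Map1lc3a, -0.37 ± 0.07 for Gabarapl2 and -0.23 ± 0.06 for Gabarap. Of all tested genes, 25.4% fell after SR-3420. The call for Map1lc3a was lost without Vehicle replicate 1 or SR-3420 replicate 1 and by DESeq2. Gabarapl1 was not called after SR-3420, although all its SR-3420 samples lay above every Vehicle sample. After ISO Gabarapl1 rose, from 281, 270.2 and 265 CPM in Vehicle to 400.5, 435 and 391, a log2 fold change of 0.59 ± 0.07 (adjusted p = 8.92e-07). Map1lc3b was at 510.3, 455 and 548 CPM in Vehicle, 309, 315 and 358 in ISO and 288, 277 and 303 in SR-3420. With inhibitors it was at 475, 448 and 529 CPM for the vehicle, 405, 351 and 448 for ISO and 494, 486 and 540.2 for SR-3420. Both stimuli thus gave levels below every Vehicle sample, and with inhibitors the SR-3420 samples overlapped their vehicle. With inhibitors the ISO samples of Map1lc3b still lay below their vehicle. This fall was called, but not in every fit with a single sample left out. The interaction of Map1lc3b was 0.87 ± 0.13 (adjusted p = 2.71e-05) for SR-3420 and 0.36 ± 0.13 (adjusted p = 0.035) for ISO, and the interaction call for ISO was lost when only the groups compared were fitted. With ISO and inhibitors the other 4 ATG8 genes were all called higher, Map1lc3a by 0.72 ± 0.16 (adjusted p = 5.61e-04), Gabarapl2 by 0.52 ± 0.07 (adjusted p = 1.77e-06), Gabarap by 0.31 ± 0.06 and Gabarapl1 by 0.28 ± 0.07, although the calls for Gabarap and Gabarapl1 were lost with total counts alone. Of all tested genes, 29.4% were higher in that comparison.

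The V-ATPase consists of a membrane sector, V0, which lets protons through, and a peripheral sector, V1, which hydrolyses ATP. Of its 17 tested subunit genes, 8 rose and 1 fell after ISO, 3 rose and 5 fell after SR-3420, and 9 rose and 3 fell after ISO with inhibitors, counts that became 2 and 5, 0 and 8, and 4 and 3 with total counts alone. The shares of all tested genes that rose and fell were 26.8% and 25.0% after ISO, 26.0% and 25.4% after SR-3420, and 29.4% and 28.3% after ISO with inhibitors. In V1, ISO raised Atp6v1a and Atp6v1b2, the catalytic and nucleotide-binding subunits, by 0.47 ± 0.07 and 0.47 ± 0.05 on the log2 scale, the regulatory subunit Atp6v1h by 0.55 ± 0.09 and the stalk subunit Atp6v1c1 by 0.33 ± 0.10. With total counts alone only Atp6v1h among these was still called, at a lower value. The largest rise in V1 was that of Atp6v1d, a subunit of the central rotor, which was at 49.6, 41.5 and 48.9 CPM in Vehicle and 75, 69.5 and 80.6 in ISO. The log2 fold change was 0.68 ± 0.10 (adjusted p = 5.72e-06) without inhibitors and 0.72 ± 0.10 (adjusted p = 2.32e-06) with them. Atp6v1g2, a subunit form best known from neurons, was the 1 pump gene that fell after ISO, from 4.99, 4.25 and 3.62 to 2.71, 2.43 and 2.63 CPM. It was at 2.72, 1.75 and 2.20 CPM in SR-3420 and 4.96, 5.33 and 3.82 in Lipase Inh. + SR-3420, with an SR-3420 interaction of 0.98 ± 0.30 (adjusted p = 0.018). The interaction of Atp6v1g2 was not called in every fit with a single sample left out. The widely expressed counterpart of Atp6v1g2, Atp6v1g1, was at 122, 124 and 122 CPM in Lipase Inh. + Vehicle and 174, 173 and 198 in Lipase Inh. + ISO. That change was 0.56 ± 0.06 (adjusted p = 9.72e-08), against -0.05 ± 0.06 without inhibitors, with an interaction of 0.62 ± 0.09 (adjusted p = 1.45e-05). Atp6v1e1, a stator subunit, had a log2 fold change of 0.64 ± 0.07 (adjusted p = 1.03e-07) with inhibitors and an interaction of 0.51 ± 0.10 (adjusted p = 5.22e-04).

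In V0, Atp6v0a1, a form of the large membrane subunit, had interactions of -0.54 ± 0.11 (adjusted p = 5.70e-04) for ISO and -0.47 ± 0.11 (adjusted p = 0.0027) for SR-3420. It was at 71.9, 63.4 and 64.9 CPM in Vehicle, 75.8, 80.5 and 72 in ISO and 59.4, 55 and 53.1 in Lipase Inh. + ISO. Its rise after ISO of 0.19 ± 0.08 was close to the threshold, was not called without ISO replicate 1 or 2 or Vehicle replicate 2 or 3, and was -0.12 with total counts alone. Atp6v0a2, another form of the same subunit, rose after ISO with inhibitors by 0.38 ± 0.06 (adjusted p = 2.34e-05), which was 0.16 and not called with total counts alone. Atp6v0e2 rested on few reads, with no sample above 1.82 CPM, and its change with ISO and inhibitors of -1.02 ± 0.42 (adjusted p = 0.044) was not called by DESeq2 or without any 1 of the 3 Lipase Inh. + ISO samples. Atp6v1f had the highest level per kb of the V1 genes, 128 ± 8.59 CPM per kb in Vehicle (SD, n = 3), and was called in none of the 8 comparisons.

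**Figure D4:**
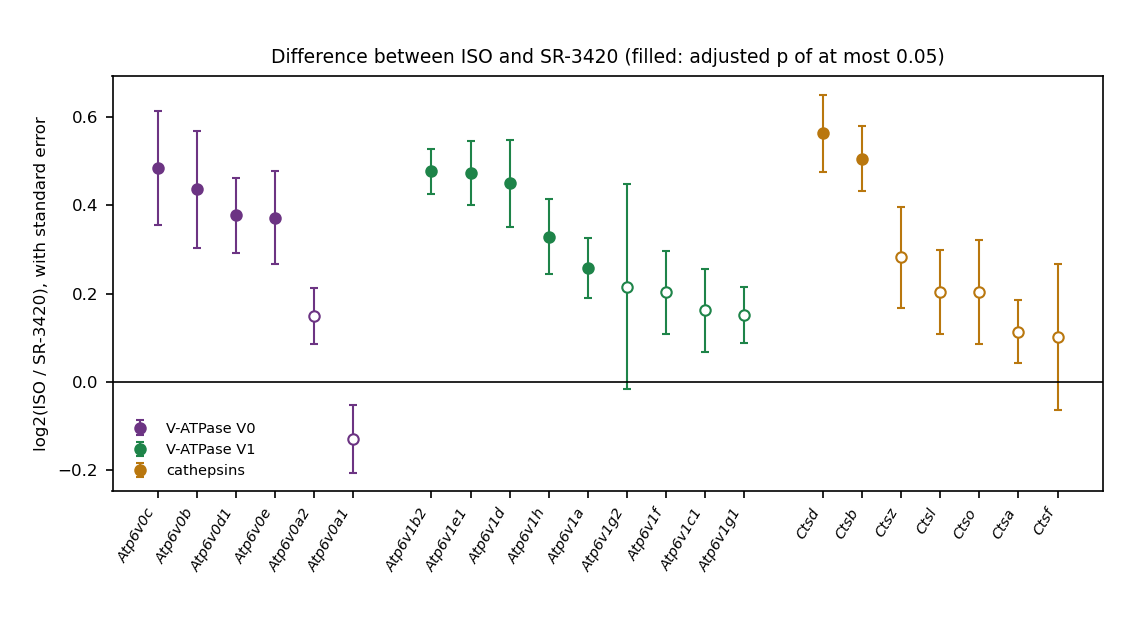
Log2 difference between ISO and SR-3420 (points, with standard error) for the V-ATPase V0 and V1 subunits and the cathepsins with a group mean above 2 CPM, 3 samples a group. Filled points have an adjusted p of at most 0.05, and all filled points lie above 0 with TMM scaling.

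The direct comparison of the stimuli separated the pump subunits further. ISO was above SR-3420 for 9 of the 17 tested subunits, 4 in V0 and 5 in V1, where 15.8% of all tested genes were higher, and for 3 of the 17 with total counts alone, where Atp6v0a1 was called lower. The differences called ran from 0.26 ± 0.07 for Atp6v1a to 0.48 ± 0.13 for Atp6v0c, the subunit of the proton-carrying ring. Atp6v1b2 was at 174, 172 and 172 CPM in Vehicle, 229, 242 and 246 in ISO and 173, 170.2 and 172 in SR-3420, a difference between the stimuli of 0.48 ± 0.05 (adjusted p = 5.72e-07). Atp6v0e, a small V0 subunit, was at 110.0, 94.2 and 131 CPM in ISO and 88.9, 84 and 85.7 in SR-3420, a difference of 0.37 ± 0.11 (adjusted p = 0.011) that was not called without ISO replicate 3 or with total counts alone. Atp6v1b2 overlaps Slc18a1 on the opposite strand by 487 bp.

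Most tested cathepsins were lowered by SR-3420. Of the 9, 6 fell (Ctsa, Ctsb, Ctsd, Ctsf, Ctsl and Ctso), where 25.4% of all tested genes did, and the other 3 were not called, with a median log2 fold change of -0.25. The count was 6 with total counts alone and 3 to 6 when single samples were left out. Ctsb (chr14:63741299-63764760 in mm9) was at 1393, 1277 and 1462 CPM in Vehicle, 1454, 1629 and 1428 in ISO and 1073, 1112 and 991 in SR-3420. With inhibitors it was at 1320.3, 1326 and 1417 CPM for the vehicle and 1276, 1372 and 1405 for SR-3420. The SR-3420 samples lay below all others, with a log2 fold change of -0.38 ± 0.07 (adjusted p = 1.78e-04), an interaction of 0.38 ± 0.10 (adjusted p = 0.0091) and a difference between ISO and SR-3420 of 0.51 ± 0.07 (adjusted p = 2.18e-05). Ctsb overlaps Fdft1, a gene of cholesterol synthesis, on the opposite strand by 773 bp, and Fdft1 itself had log2 fold changes of -0.46 after SR-3420 and -0.58 after ISO. Ctsd (chr7:149561821-149573775) was at 563, 435 and 432 CPM in Vehicle, 485, 513 and 487 in ISO, 316, 355 and 334 in SR-3420 and 695, 726 and 691 in Lipase Inh. + ISO. Here too SR-3420 was lowest, and the samples with ISO and inhibitors were above all others. The log2 fold change was -0.51 ± 0.09 (adjusted p = 5.37e-05) for SR-3420 and 0.62 ± 0.09 (adjusted p = 3.33e-06) for ISO with inhibitors, the latter with an interaction of 0.56 ± 0.12 (adjusted p = 0.0013). Ctsl, cathepsin L, fell after SR-3420, with a log2 fold change of -0.25 ± 0.10 (adjusted p = 0.036), and this was not called without Vehicle replicate 1 or SR-3420 replicate 1 or 3. Ctsa, which also protects other lysosomal enzymes, had a log2 fold change of -0.18 ± 0.07 (adjusted p = 0.035) after SR-3420 and overlaps Neurl2 and Pltp on the opposite strand by 725 and 1515 bp. That call was lost without a filter, when only the groups compared were fitted, and without replicate 1 or 3 of either group. Ctso, a cysteine cathepsin, fell in 3 comparisons, with log2 fold changes of -0.33 ± 0.12 for ISO, -0.53 ± 0.12 for SR-3420 and -0.46 ± 0.12 for ISO with inhibitors. Macrophages are rich in lysosomes, and the summed macrophage markers were 5.87 to 6.88 CPM in Vehicle and 3.82 to 4.92 CPM in SR-3420, of which the part in the cathepsin levels was not tested. This sum was almost all Cd14, with means of 6.01 CPM in Vehicle and 3.95 CPM in SR-3420, whereas Ptprc had 0 counts.

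Of the membrane proteins, Lamp2, which is needed for the fusion of vesicles with lysosomes, responded to ISO and not to SR-3420. Its level was 115, 129 and 144 CPM in Vehicle, 179, 181 and 183 in ISO and 136, 135 and 126 in SR-3420. With inhibitors it was 135, 135 and 135 CPM for the vehicle and 198, 192 and 189.9 for ISO. All ISO samples lay above their vehicle in both settings, with log2 fold changes of 0.49 ± 0.07 (adjusted p = 5.37e-06) and 0.52 ± 0.07 (adjusted p = 1.77e-06), and ISO was above SR-3420 by 0.45 ± 0.07 (adjusted p = 5.03e-05). With total counts alone the change after ISO without inhibitors was 0.18 and was not called. Lamp1 fell after SR-3420, with a log2 fold change of -0.19 ± 0.07 (adjusted p = 0.033) and overlapping samples, and this call was lost without Vehicle replicate 1 or 2 or SR-3420 replicate 1 or 3. Mcoln1 fell after ISO with inhibitors, from 19.2, 18.5 and 21.3 to 14.7, 14.2 and 15.7 CPM, a log2 fold change of -0.40 ± 0.11 (adjusted p = 0.0032). Of the genes whose promoters are shown above, Ctsd rose with ISO and inhibitors, Mcoln1 and Atg3 fell, and Lamp1, Ctsa and Atp6v0d1 were not called. Among genes with a positive ISO interaction, 1 of 10 with a window held CACGTG, and among those with a negative one, 2 of 8.

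Tfeb (chr17:47873986-47929365) and Tfe3 encode the transcription factors. Tfeb was at 31.5, 31.5 and 25.1 CPM in Vehicle, 32.3, 30.6 and 39.1 in ISO and 30.3, 33.8 and 33.2 in SR-3420. In the presence of the inhibitors it was at 25.7, 27 and 23.1 CPM with vehicle, 54.7, 67.6 and 50.5 with ISO and 27.8, 22.7 and 27.2 with SR-3420. The 3 samples with ISO and inhibitors lay above the other 15. The log2 fold change of ISO was 0.20 ± 0.12 without inhibitors, which was not called, and 1.19 ± 0.12 (adjusted p = 1.93e-08) with them, and the interaction was 0.99 ± 0.17 (adjusted p = 1.03e-04). Tfe3 rose after SR-3420 from 75.5, 62.4 and 74.2 to 88, 93.2 and 93.2 CPM, a log2 fold change of 0.37 ± 0.08 (adjusted p = 9.48e-04), and after ISO with inhibitors by 0.25 ± 0.08 (adjusted p = 0.017). The latter call was lost with total counts alone and did not hold in every fit with a single sample left out. The SR-3420 interaction of Tfe3 was -0.41 ± 0.12 (adjusted p = 0.015).

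Of the 60 tested genes, 9 were called in none of the 8 comparisons. Atg16l2, Atg9b, Atp6v1c2, Ctsh and Ctsk were low, with group means of at most 1.99 CPM. Becn1, the protease gene Atg4b, Atp6v1f and the carboxypeptidase gene Ctsz were well covered, with group means of at least 31.7 CPM. For these 4 the data do not show that the levels were equal, only that no difference passed the threshold.

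Other genes of the pathway were taken from a list of 97, all of which passed the filter. Of these, 29 rose and 30 fell after ISO, 23 rose and 38 fell after SR-3420, and 26 rose and 36 fell after ISO with inhibitors. These are shares of the list to be read against 26.8% and 25.0%, 26.0% and 25.4%, and 29.4% and 28.3% of all tested genes, and with total counts alone the counts were 15 and 57, 14 and 54, and 13 and 58. Among 30 lysosomal enzymes and their activators, 3 rose and 12 fell after ISO and 2 rose and 15 fell after SR-3420, or 2 and 24 and 2 and 21 with total counts alone. Gla, the α-galactosidase gene, was 1 of the 3 that rose, from 8.66, 8.66 and 8.56 CPM in Vehicle to 46.1, 50.3 and 43.8 in ISO, a log2 fold change of 2.44 ± 0.11 (adjusted p = 7.57e-14), and its ISO interaction was -1.11 ± 0.15 (adjusted p = 8.13e-06). Fuca1, another lysosomal glycosidase, fell after ISO (-0.55 ± 0.13 on the log2 scale) and had an interaction of 0.65 ± 0.18 (adjusted p = 0.0081). Cln3, a lysosomal membrane protein gene, rose after SR-3420 by 1.30 ± 0.23 (adjusted p = 7.69e-05) and had an ISO interaction of -1.80 ± 0.36 (adjusted p = 6.11e-04). Sesn2 and Sesn1 encode sestrins, inhibitors of the growth kinase complex mTORC1, and moved apart. Sesn2 was at 40.2, 40.6 and 41.9 CPM in Vehicle, 98, 95.8 and 85 in ISO and 41.2, 39.2 and 36 in Lipase Inh. + ISO. The fold change on the log2 scale was 1.19 ± 0.08 for ISO and -0.38 ± 0.09 with inhibitors, with an interaction of -1.56 ± 0.12 (adjusted p = 2.10e-09), whereas Sesn1 fell after ISO (-1.54 ± 0.11) and after SR-3420 (-1.19 ± 0.10). Ddit4, another inhibitor of mTORC1, rose after ISO by 2.31 ± 0.12 (adjusted p = 1.44e-12), after SR-3420 by 1.28 ± 0.12 and after ISO with inhibitors by 2.98 ± 0.13. Trp53inp1, whose product binds ATG8 proteins, fell in the same comparisons, with log2 fold changes of -1.65 ± 0.10, -1.18 ± 0.10 and -2.42 ± 0.10.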

How the data were processed

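RNA-seq was performed on differentiated BAT-LgT brown adipocytes in 6 groups of 3 samples, grouped by their titles. The authors prepared TruSeq libraries from TRIzol extracts, aligned the reads with STAR (2.4.2a, per the submitters' processing notes) to mm9, built tag directories with HOMER keeping 1 read per position and length, and counted reads in RefSeq genes with iRNA-seq. The deposited values are whole-number counts per gene, not normalised; whether counting used strand is not given in the sources used here. All 18 columns were mapped and 0 were left out.

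From these counts, edgeR 4.0.16 in R 4.3.3 was used with filterByExpr (minimum count 10, minimum total 15), TMM scaling and the quasi-likelihood test, with 1 mean per group and all 18 samples in 1 fit. The 8 comparisons include both interactions with the inhibitors and ISO against SR-3420. Benjamini-Hochberg adjustment covered all 12156 genes tested, with a threshold of 0.05. Levels are TMM-scaled CPM, and errors of fold changes are standard errors on the log2 scale. Depth ran from 4263755 to 21205032 counts, and floors of 3 counts cover counting error only. DESeq2 1.42.0, relative log expression scaling, total counts alone, other filters, a replicate block, fits of only the groups compared and leaving out each sample were run as alternatives, and the fit was tested on simulated data.

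The genes and lists were chosen with earlier results of these data known. Named with values were the genes called at a log2 fold change of 1 or more in size, the 3 called genes with the largest change per comparison and direction, the 2 with the highest level per kb per role, and fixed genes such as Tfeb, Sqstm1 and Lamp1. Of the other pathway genes, the 2 largest called changes per direction after ISO, after SR-3420 and in the ISO interaction were named. Further genes named as examples of a role, such as Atg13, Atg4d and Atp6v1b2, were chosen after their values were seen. Promoter windows were matched by symbol.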

Additional observations from a re-analysis of the deposited data

Results flagged for a closer look

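For 4 genes the response to ISO went in opposite directions with and without lipase inhibitors, with every ISO sample above every Vehicle sample and every Lipase Inh. + ISO sample below every Lipase Inh. + Vehicle sample, and the difference was tested as an interaction in edgeR. The interaction on the log2 scale was -1.34 for Sqstm1, -0.98 for Atg12, -0.67 for Atg3 and -0.54 for Atp6v0a1, and each passed an adjusted p of 0.05. The share of all tested genes that turned in this way was not counted. Whether 4 of the 60 tested genes is more than that share was therefore not tested. A negative ISO interaction was called for 16.6% of all tested genes. The rise of Atp6v0a1 after ISO alone was called in the reported fit and lost in several others, that of Atg3 was lost without ISO replicate 2 and with total counts alone (0.019), and that of Atg12 was lost with total counts alone (0.051). Groups of 3 samples were not searched for single outlying samples.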

How the results depend on the processing

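Scaling by total counts alone had the largest effect. After ISO 5 genes were then higher and 28 lower (median -0.25), after SR-3420 5 were higher (median -0.26), after ISO with inhibitors 12 (median -0.067), after SR-3420 with inhibitors 1 (median -0.13), and for ISO against SR-3420 10 were higher and 5 lower (median 0.020). Among the 33 genes named by rule, the sign turned for Atg7 (-0.28), Ctsd (-0.25), Gabarap (-0.21), Gabarapl2 (-0.24), Lamp1 (-0.29), Atp6v0a1 (-0.12) and Wipi2 (-0.11) after ISO, and for Atg9a (-0.023) after ISO with inhibitors. Among the calls of the other tested genes it turned for Atp6v0a2 (-0.12) and Atp6v0d1 (-0.028) after ISO and for Atp6v1a (-0.065) after ISO with inhibitors. Fitting only the groups compared left 0 genes lower under the inhibitors alone by edgeR, and without a filter the median for ISO against SR-3420 was 0.15.

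Same-numbered samples did not deviate together for number 1 (mean correlation -0.0118, lowest -0.1136), so the numbers were not taken as pairs in the main fit. For numbers 2 and 3 the mean correlations were 0.15 and 0.190, and every pair was positive, with lowest values of 0.0746 and 0.114. With the replicate block, 2 genes were lower after SR-3420 with inhibitors, 5 had a negative SR-3420 interaction and 3 were lower for ISO against SR-3420. The block also gave 11 positive SR-3420 interactions, and 15 positive and 12 negative ISO interactions.

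When single samples were left out, ISO gave 14 to 19 genes higher and 5 to 9 lower (5 without ISO replicate 1 or 2; median 0.04 to 0.13), and SR-3420 8 to 11 higher and 15 to 24 lower (15 without Vehicle replicate 1; median -0.15 to -0.08). The inhibitors alone gave 0 to 1 lower (median -0.06 to -0.01), with 0 without Vehicle replicate 1 or Lipase Inh. + Vehicle replicate 1 or 3. ISO with inhibitors gave 20 to 26 higher and 13 to 15 lower (median 0.12 to 0.20), and SR-3420 with inhibitors 1 to 2 higher (1 without Lipase Inh. + ISO replicate 1, Lipase Inh. + SR-3420 replicate 2 or 3, or Lipase Inh. + Vehicle replicate 1 or 2) and 1 lower (median -0.037 to -0.0091). The ISO interaction gave 10 to 14 positive and 6 to 10 negative (6 without Lipase Inh. + ISO replicate 3; median 0.02 to 0.11), the SR-3420 interaction 6 to 10 and 3 to 4 (median 0.04 to 0.15), and ISO against SR-3420 17 to 20 higher and 0 to 2 lower (2 without ISO replicate 2; median 0.14 to 0.17). Of the values of these 33 genes under the other alternatives, 1763 kept direction and side of the threshold, 36 passed newly, 35 no longer passed and 8 turned sign, and with single samples left out 4601 kept both, 33 passed newly and 118 no longer passed. The cause of these changes was not tested. The shallow library, Lipase Inh. + SR-3420 replicate 2, limits the precision of low genes in its group.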
